A study of Mus musculus with 6 samples.

Results

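The transcripts described here are 10 genes of T cells and of white blood cells at large, measured in cultures that the labels name as mammary epithelial cells. The genes are Cd3d, Cd3e, Cd3g, Cd2, Lck, Coro1a, Ptprc, Cd52, Thy1 and Laptm5, and they were chosen by name with their brightness on these 6 arrays known, so their levels are given as a description. The one test that includes them is the fit over all genes, from which only the number of them called is given. Of the 10 genes, 9 had at least 1 named probe on the array, with 18 probes among 45281 in all, and Lck is named by no probe in the annotation used here. Cultures of Jarid1b-/- cells (KO, 3 cultures lettered A, B and C) were set against 3 cultures of Jarid1b+/+ cells (WT) with the same letters. Jarid1b is the older symbol of Kdm5b, a histone demethylase. The cultures were early-passage and were harvested before they were confluent, and the labels speak of pairs. The strain, age and sex of the mice, and how epithelial cells were separated from other cells of the gland, are not given in the sources used here. Whether the cultures of a genotype derive from different mice is not stated, and p-values therefore reflect the spread among these 3 and 3 samples, part of which may be technical.

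T cells recognise antigen through a receptor whose signal is carried into the cell by the CD3 chains, and the kinase encoded by Lck starts that signal. CD2 is an adhesion molecule of T cells and natural killer cells, and coronin 1A, encoded by Coro1a, organises actin in white blood cells. CD45, encoded by Ptprc, is a phosphatase on the surface of nearly all white blood cells, and CD52 is a small surface glycopeptide of lymphocytes. Laptm5 encodes a lysosomal membrane protein of blood cells. Thy1 marks T cells in mice but is also carried by fibroblasts and other stromal cells. The mammary gland holds resident lymphocytes among its epithelium and stroma, and a lymph node lies within one of its fat pads.

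Values are probe brightness (raw intensity) as deposited, followed where differences are given by background-corrected, quantile-normalised log2 intensity. The median probe read 95.3 to 100.5 on the KO arrays and 97.9 to 100.7 on the WT arrays, so a raw intensity near 100 is close to background, and the dimmest detected probe read 99.2 to 105.2 on KO arrays and 101.7 to 105.5 on WT arrays. A probe was taken as detected where its detection p, which compares it with negative control beads, was under 0.05, and 17033 to 18686 probes were detected on the KO arrays against 17124 to 18185 on the WT arrays. Kdm5b, the targeted gene, was not detected on any KO array and averaged 4.39 ± 0.05 in KO against 6.85 ± 0.24 in WT (log2 intensity, SD, n = 3 each), which is at least 4.94-fold lower in KO. Epithelial genes were present throughout, with 17 of 18 listed genes detected on each of the 6 arrays.

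The lymphoid transcripts were brightest on the array of KO culture C and next brightest on that of WT culture C. Of the 10 genes, 6 were detected on KO A, 6 on KO B and 8 on KO C, against 7 on WT A, 7 on WT B and 8 on WT C. Among the 8 genes detected on at least 1 array, 7 had KO C highest and WT C second, where 9.5% of 12358 detected genes had that order. KO C stood more than 2-fold above each of the other 5 arrays for 7 of the 8, against 1.3% of all detected genes, and WT C stood more than 2-fold above each array of pairs A and B for 5 of the 8, against 0.971%. The exception to the order was Thy1. The genes were chosen with these arrays in view, so these shares describe them and are no evidence about them.

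**Figure D1:**
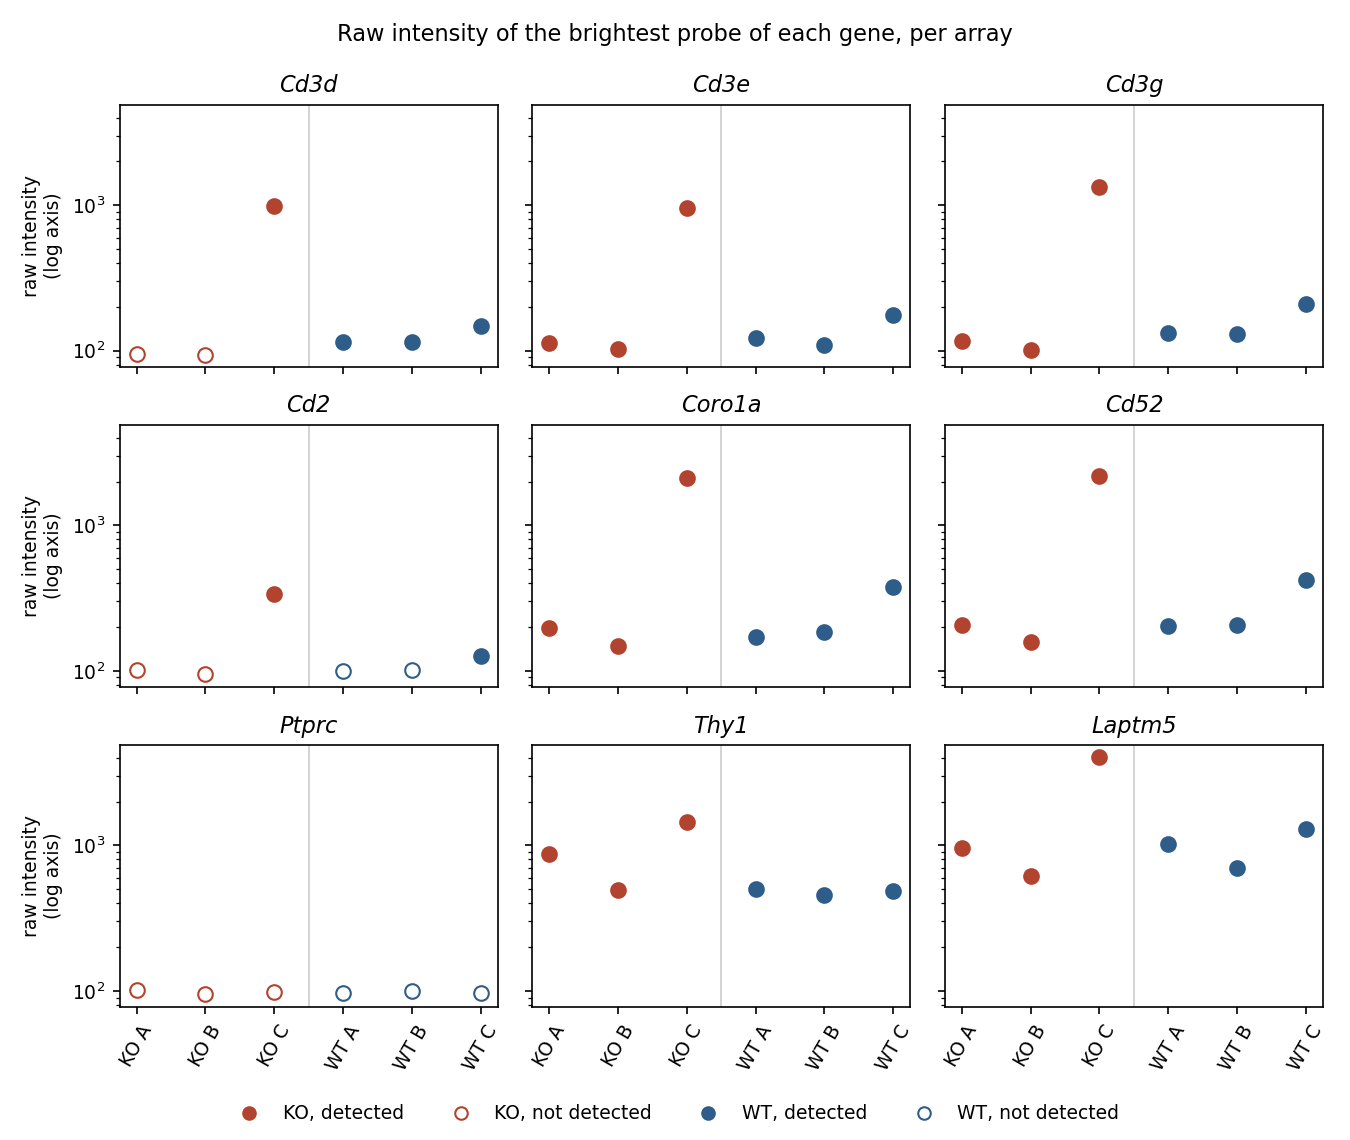
Raw intensity (log axis) of the brightest probe of the 9 measured genes on the arrays of the 3 KO and 3 WT cultures; filled points were detected and open points were not. KO C is the highest point in every panel but that of Ptprc, where no point was detected, and WT C comes second in every panel but those of Thy1 and Ptprc.

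The CD3 chains stood farthest above the other arrays on KO C. Cd3d, the delta chain, read 94.8, 93.4 and 993 on KO A, B and C, against 114.4, 114.1 and 148.7 on WT A, B and C (raw intensity). It was detected on KO C only among the KO arrays and on all 3 WT arrays, so the groups overlap and a single KO array carries the high value. Cd3g, the gamma chain, read 117.0, 100.4 and 1335 on the KO arrays, against 133.4, 131.2 and 208.8 on the WT arrays. It was detected on all 6 arrays, and both KO A and KO B lay below every WT array. Cd3e, the epsilon chain, read 112.8, 103.1 and 949.9 on the KO arrays, against 121.8, 109.4 and 175.9 on the WT arrays at its brighter probe. The second Cd3e probe read 112.6, 105.2 and 666.9 in KO, against 116.4, 113.7 and 148.4 in WT, with the same array at the top.

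Within pair C, KO exceeded WT by 3.79 for Cd3d, 3.35 for Cd3g and 3.25 for Cd3e (log2 intensity), which are 13.8-fold, 10.2-fold and 9.51-fold. These are differences between single arrays without a replicate. Within pairs A and B the sign was turned or the difference was small, with -0.79 and -0.78 for Cd3d, -0.55 and -0.99 for Cd3g, and -0.36 and 0.06 for Cd3e. The Cd3d values of KO A and KO B were not above background, so those log2 differences are limited by the background correction. In such bulk RNA, fewer cells of a type and less RNA per cell cannot be told apart.

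The CD3 genes lie next to each other on mouse chromosome 9, with Cd3g and Cd3d read in opposite directions. The 250 bases before each start are shown, from RefSeq sequence of the build GRCm38.p6. They lie at chr9:44981536-44981785 on the plus strand, chr9:44980432-44980681 on the minus strand and chr9:45009612-45009861 on the minus strand, and 7 of the 10 genes matched the promoter table. Each is written 5′ to 3′ along its gene, and capitals mark 4 motifs searched on both strands: the ETS motif AGGAAG, the RUNX motif TGTGGT, the GATA motif AGATAA and the E-box CACCTG.
Cd3d: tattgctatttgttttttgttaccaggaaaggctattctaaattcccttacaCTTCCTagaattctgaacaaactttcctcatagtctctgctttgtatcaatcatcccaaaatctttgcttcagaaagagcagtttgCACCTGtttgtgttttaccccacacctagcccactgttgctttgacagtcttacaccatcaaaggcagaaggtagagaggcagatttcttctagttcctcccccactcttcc
Cd3g: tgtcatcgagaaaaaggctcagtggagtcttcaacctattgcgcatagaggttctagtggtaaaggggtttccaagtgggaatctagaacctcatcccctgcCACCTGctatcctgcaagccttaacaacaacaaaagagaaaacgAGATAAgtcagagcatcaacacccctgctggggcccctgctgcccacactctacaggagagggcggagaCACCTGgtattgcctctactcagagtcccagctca
Cd3e: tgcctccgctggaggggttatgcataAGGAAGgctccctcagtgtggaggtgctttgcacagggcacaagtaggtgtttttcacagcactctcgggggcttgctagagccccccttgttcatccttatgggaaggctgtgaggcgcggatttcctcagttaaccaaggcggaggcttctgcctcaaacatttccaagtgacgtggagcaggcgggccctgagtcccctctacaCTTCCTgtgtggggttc
ETS, RUNX and GATA factors and the E proteins, which bind E-boxes, are known regulators of T-cell genes. The window of Cd3d held 1 ETS and 1 E-box match, that of Cd3g 1 GATA and 2 E-box matches, and that of Cd3e 2 ETS matches. In 32851 windows of the same length before annotated starts, 29.5% held the ETS letters, 14% the RUNX letters, 9.99% the GATA letters and 17.2% the E-box letters. No RUNX letters were found in the 3 windows, and the capitals do not overlap. The matches describe the letters and no binding was measured.

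Cd2 was at background on both KO A and KO B, and also on WT A and WT B. It read 101.7, 94.3 and 335.2 on the KO arrays, against 100.1, 101.0 and 126.4 on the WT arrays (raw intensity), and it was detected on KO C and WT C only. The difference in pair C was 2.46 on the log2 scale, or 5.51-fold. Cd2 was the one detected gene of the 8 that missed the filter of the test across genes, which asked for detection on at least 3 arrays.

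Among genes of white blood cells at large, Coro1a and Cd52 were detected on every array. Coro1a read 196.2, 147.0 and 2106 on the KO arrays, against 170.4, 185.2 and 378.2 on the WT arrays at its brightest probe. All 4 Coro1a probes had KO C highest, and their pair C differences lay between 2.45 and 2.86 (log2 intensity). Cd52 read 207.2, 156.5 and 2167 on the KO arrays, against 203.8, 205.3 and 418.3 on the WT arrays, a pair C difference of 2.64 or 6.22-fold. Its dimmer probe was detected on KO C only. On the arrays of pairs A and B Coro1a lay between 6.40 and 6.74 and Cd52 between 6.73 and 6.97 (log2 intensity), with KO and WT values interleaved.

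Ptprc was not detected by any of its 4 probes on any array, KO C included. Its brightest probe read 101.1, 95.8 and 98.6 in KO, against 97.2, 99.3 and 96.1 in WT, all near the background level, and the lowest detection p of any Ptprc probe was 0.0791, on KO C. This defining marker of white blood cells was therefore at background on the same array on which 32 of 37 other leukocyte genes were detected. Ptprcap, which encodes a protein bound to CD45 and is named here after its values were seen, read 6.12 on KO C against 4.68 on WT C (log2 intensity). Epcam, an adhesion gene of epithelial cells also named after its values were seen, was not detected on any of the 6 arrays. The reason for the missing Ptprc signal was not tested. Ptprc lies on chromosome 1 within 5 Mb of Kdm5b in the GRCm38.p6 annotation.

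Laptm5 was bright on all arrays. It read 961 and 617 on KO A and KO B and 4054 on KO C, against 1026 and 701 on WT A and WT B and 1292 on WT C. The pair C difference was 1.68 on the log2 scale (3.2-fold), the smallest of the 8 detected genes, and pairs A and B differed by -0.04 and 0.23. Myeloid cells also carry Laptm5, and listed macrophage and myeloid genes are given below beside it.

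Thy1 followed another order than the CD3 genes. It read 876, 497 and 1458 on the KO arrays, against 503, 458 and 487 on the WT arrays, and its other probe was detected nowhere. KO exceeded WT in each pair, by 0.92, 0.58 and 1.76 on the log2 scale in A, B and C. All normalised KO values lay above all WT values, which held for 1 of the 8 genes and for 3.49% of all detected genes. In raw intensity the groups overlapped, with KO B at 497 below WT A at 503. Thy1 averaged 9.68 ± 0.68 in KO and 8.59 ± 0.07 in WT (log2 intensity, SD, n = 3 each). The fibroblast and stromal list was also highest on KO C and next highest on KO A. Its median over 17 genes, as log2 intensity minus each gene's mean over the arrays, was 0.43, -0.11 and 0.68 on KO A, B and C, against -0.29, -0.20 and -0.30 on WT A, B and C. Its summed level ranged from 14407 to 23961 in KO and from 12744 to 14306 in WT (linear normalised intensity), and 16 or 17 of 18 listed genes were detected on each array. The part of these cells in the Thy1 signal was not tested.

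**Figure D2:**
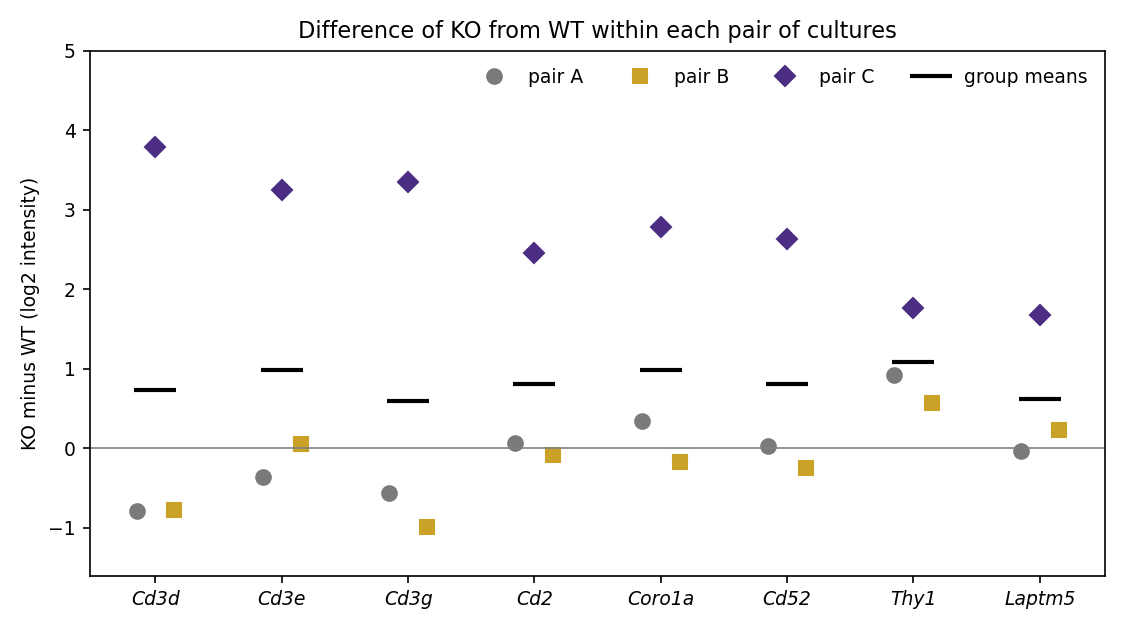
KO minus WT in log2 intensity for each of the 8 detected genes, by pair of cultures (points) and for the group means (bars). Pair C lies between 1.68 and 3.79 for every gene, while pairs A and B lie between -0.99 and 0.92, with Thy1 the gene at the upper end.

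Set between the genotypes, the values of these genes rest on culture C. Over the 8 detected genes the median difference of group means was 0.81 on the log2 scale, with all 8 above 0, beside a median of -0.001 over 12358 detected genes. Within pairs the median of the 8 stood at -0.01 in A, -0.13 in B and 2.71 in C, beside -0.01, -0.02 and -0.02 over all genes. KO was above WT for 4 of 8 genes in pair A, 3 of 8 in pair B and 8 of 8 in pair C, against 49%, 47.7% and 47.1% of all genes. In pair C all 8 were more than 2-fold higher in KO, against 2.8% of all genes. Without KO replicate C the median of the 8 was -0.53 and 7 of the 8 differences turned negative, and the value from pairs A and B alone was -0.06. Without KO replicate A or KO replicate B the median was 1.44 and 1.58.

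Of the 7 genes that entered the limma fit, 0 passed a Benjamini-Hochberg adjusted p of 0.05, where 0.0192% of 10419 genes did. At an unadjusted p under 0.05 the number was 1 of 7, where 3.03% of all genes tested did so. Without KO replicate C it was 3 of 7, where 361 of all 10419 genes did. The genes were chosen with these values known, so these counts describe them and are no evidence about them. Without KO replicate C Thy1 was the only detected gene of the set above 0, at 0.70 on the log2 scale, and Cd3g was the lowest, at -1.20. At the adjusted p of 0.05, a fit with the culture pair as a replicate block passed 0.0288% of all genes and again 0 of the 7. The spread in KO was wide for the CD3 genes: Cd3d averaged 6.11 ± 3.23 in KO and 5.37 ± 0.59 in WT, and Cd3g averaged 6.70 ± 3.13 in KO and 6.09 ± 0.75 in WT (log2 intensity, SD, n = 3 each).

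Most other detected T-cell genes were also brightest on KO C, while WT C came second for fewer of them. Of 43 listed genes that are not among the 10, 36 had a probe and 30 were detected on at least 1 array, with 14, 16 and 28 detected on KO A, B and C, against 18, 13 and 19 on WT A, B and C. KO C was the highest array for 23 of the 30. It stood more than 2-fold above all others for 17, against 1.3% of all detected genes. WT C was second after KO C for 13, against 9.5%. The share of all genes with KO C highest, whatever came second, was not computed. Lat, Cd28, Sit1, Trat1, Cd7, Cd4 and Cd96, named after their values were seen, were detected on KO C only. They entered the 30 through that array, so the counts are a description, as for such genes of the lists below. Cd6, a co-receptor of T cells, read 4.50, 4.30 and 8.82 on the KO arrays, against 4.36, 4.51 and 5.64 on the WT arrays (log2 intensity). Cd27, a costimulatory receptor, read 4.88, 5.20 and 8.76 in KO, against 5.23, 5.20 and 5.90 in WT. In pair C the difference was 2.58 for Zap70, the kinase that binds phosphorylated CD3 chains, 2.42 for Rasgrp1, which links the receptor to Ras, 2.11 for the adaptor gene Fyb, and 1.86 for Bcl11b, a transcription factor of the T lineage.

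In the limma fit 0 of the 17 T-cell genes tested passed an adjusted p of 0.05, and 0 had an unadjusted p under 0.05, where 3.03% of all genes tested did. Their median difference of group means was 0.39, with 16 of 17 above 0, and by pair the medians of the 30 detected genes were -0.07, -0.07 and 1.47 in A, B and C. Some T-cell genes differed less in pair C or were not detected. Cd4, the co-receptor of helper T cells, differed by 0.52 in pair C and was detected on KO C only. Cd8b1, the beta chain of the CD8 co-receptor, differed by 0.21 and was detected on all 6 arrays. Cd5 and Cd8a had a probe and were not detected on any array. Cd4, Cd5, Cd8a and Cd8b1 are named after their values were seen.

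Genes of natural killer and cytotoxic cells were fewer on the arrays, with 10 of 21 measured genes detected anywhere, and the killer cell receptor genes Ncr1, Klrb1c and Klrk1 detected on none. Ccl5, a chemokine of activated T cells, read 10.16 on KO C against 6.93 on WT C, the lowest of the 6 arrays (log2 intensity), and differed by -0.03 and -0.72 in pairs A and B. Nkg7, a granule membrane gene, differed by 1.67 in pair C and by -0.54 and -0.78 in pairs A and B. The protease gene Ctsw differed by 1.55 and the receptor gene Klrd1 by 0.98 in pair C, while Prf1, which encodes perforin, differed by 0.37. Xcl1, a lymphocyte chemokine, was not detected on KO A or KO B and was detected on the other 4 arrays, and it differed by -0.14 in pair C. In limma 0 of the 8 genes tested passed, and 0 had an unadjusted p below 0.05. Ncr1, Klrb1c and Klrk1 are named after their values were seen.

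In the list of gamma delta and intraepithelial T cells, 8 of 11 measured genes were detected. Itgae, the integrin chain that tethers T cells to epithelium, read 5.18, 4.86 and 7.16 in KO, against 5.57, 5.68 and 6.49 in WT, a difference of 0.67 in pair C. Blk, Btla and Jaml differed by 1.36, 1.25 and 1.20 in pair C, and Sox13 and Zbtb16 by -0.25 and -0.16. Limma passed 0 of the 7 genes tested, and 0 reached an unadjusted p of 0.05.

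B-cell genes were high on the same array. Of 15 measured genes 10 were detected, with 4, 2 and 10 detected on KO A, B and C, against 6, 3 and 9 on WT A, B and C. Fcmr, the receptor for IgM, read 5.39, 4.55 and 9.96 on the KO arrays, against 5.91, 4.72 and 7.84 on the WT arrays (log2 intensity). Cd79b, a signalling chain of the B-cell receptor, read 5.42, 4.76 and 8.32 in KO, against 5.18, 4.52 and 5.63 in WT. The pair C difference was 2.22 for Pou2af1, a coactivator of B cells, 1.71 for the IgE receptor gene Fcer2a, 1.88 for the tetraspanin gene Cd37 and 1.26 for Cd22. KO C was highest for 9 of the 10, and the median pair C difference was 1.48. The order with WT C second held for 6 of the 10, against 9.5% of all detected genes. KO C stood more than 2-fold above all others for 6, against 1.3%. Pax5, Cr2 and Jchain had a probe and were not detected on any array, and they are named after their values were seen. Here too limma passed 0 of the 7 genes tested, and 0 had an unadjusted p below 0.05.

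Other genes of white blood cells at large were mostly highest on KO C. Of 37 measured genes 34 were detected, with 24, 22 and 32 detected on KO A, B and C, against 23, 20 and 28 on WT A, B and C, and KO C was highest for 29. The order with WT C second held for 16 of the 34, against 9.5% of all detected genes. KO C stood more than 2-fold above all others for 19, against 1.3%. The pair C difference was 3.09 for Rac2, a GTPase of blood cells, 2.63 for the actin regulator gene Was, 2.57 for the integrin gene Itgb7, 2.56 for Selplg, the ligand of P-selectin, 2.40 for Arhgdib and 2.01 for Ikzf1, the lymphoid transcription factor Ikaros. Arhgdib read 7.95, 7.94 and 10.49 in KO, against 7.36, 7.28 and 8.09 in WT (log2 intensity). Rac2 read 4.77, 4.64 and 8.16 in KO, against 4.82, 4.35 and 5.06 in WT. Cd44, an adhesion receptor, and Itgb2, an integrin chain of white blood cells, differed by -0.49 and -0.23 in pair C and are named after their values were seen. Of 27 genes tested 0 passed, and 1 had an unadjusted p under 0.05 in limma, where 3.03% of all genes tested did.

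**Figure D3:**
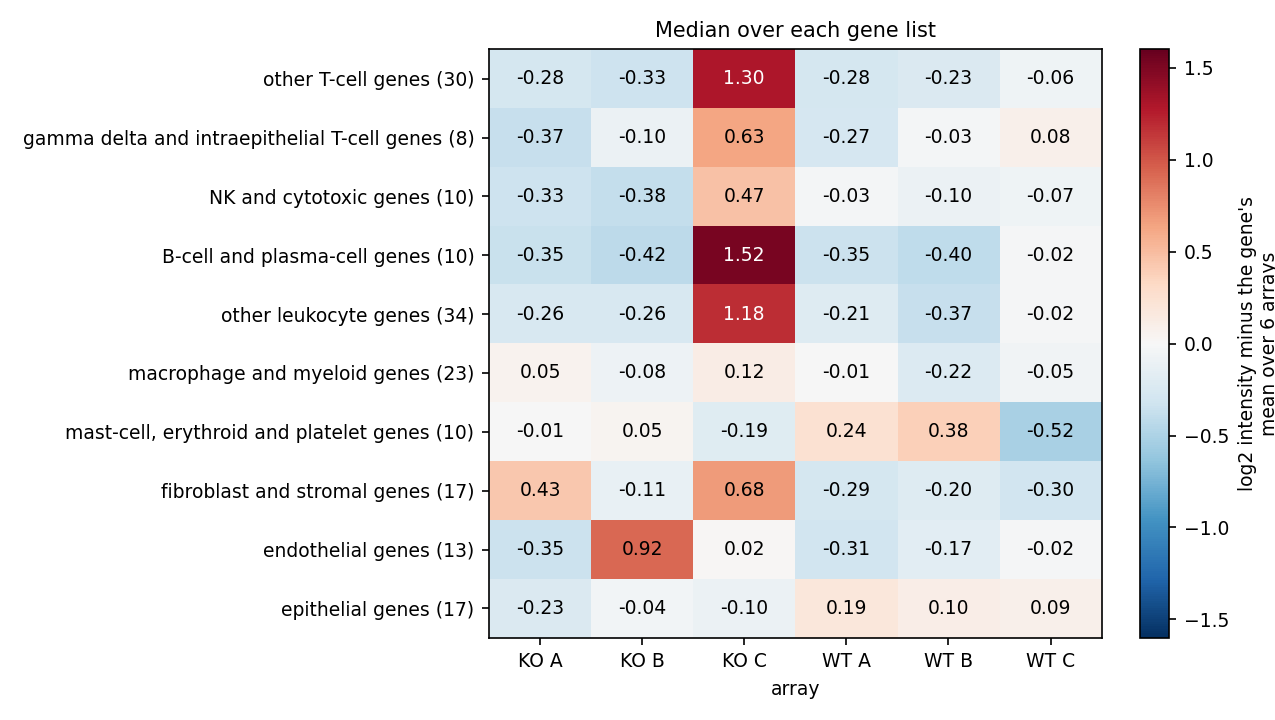
Median over each gene list of log2 intensity minus the gene's mean over the 6 arrays, for genes detected on at least 1 array (number in brackets). KO C stands at 1.30, 1.52 and 1.18 for T-cell, B-cell and other leukocyte genes, and at 0.12 for macrophage and myeloid genes.

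Macrophage and myeloid genes had KO C highest for 7 of 23 detected genes. KO C was highest with WT C second for 2 of the 23, where 9.5% of all detected genes had that order. Of 33 genes measured, 18 to 20 were detected on each KO array against 19 on each WT array. The summed level ranged from 6241 to 9621 in KO and from 4429 to 9138 in WT (linear normalised intensity), with KO C the lowest of the KO arrays and WT C the lowest of the WT arrays. S100a8 and Cd14, which epithelial cells also carry, made up most of that sum on the arrays of pairs A and B. Without them the sum was 2572, 2623 and 4860 on KO A, B and C, against 2171, 1727 and 2789 on WT A, B and C. KO C was then highest and WT C second, a split chosen after the values were seen. Lyz1 and Lyz2 together supplied 1532, 1744 and 3694 of it on KO A, B and C. On WT A, B and C they supplied 1211, 882 and 1775, so most of it came from them on every array. S100a8 read 11.39, 11.08 and 7.20 in KO, against 11.09, 10.45 and 7.45 in WT, and Cd14 read 12.09, 11.73 and 10.27 in KO, against 12.22, 11.93 and 10.52 in WT. Csf1r and Adgre1, defining receptors of macrophages named after their values were seen, were detected on all 6 arrays and differed by 0.27 and -0.01 in pair C. Lyz2 and Lyz1, the lysozyme genes, differed by 1.32 and 0.98 in pair C, Aif1 by 0.86 and Cx3cr1 by -0.35. The part of myeloid cells in the Laptm5 signal was not tested.

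Red cell genes were lowest on both arrays of pair C. Hba-a1, an alpha-globin gene, read 12.15, 13.73 and 7.86 on the KO arrays, against 12.56, 13.62 and 8.01 on the WT arrays (log2 intensity). Alas2, the first enzyme of haem synthesis in red cells, and Hbb-b2, a beta-globin gene, were each detected on 4 arrays and read 4.27 and 4.13 on KO C, against 4.50 and 4.14 on WT C. The list of mast-cell, erythroid and platelet genes summed to 479 to 13938 in KO and to 463 to 12922 in WT. The mast-cell genes Cpa3, Mcpt4 and Cma1 were detected on every array but WT C. They differed by -0.85, -0.35 and -0.34 in pair A and by -0.27, -0.59 and -0.49 in pair B. In pair C they differed by 0.42, 0.45 and 0.35. Pair C therefore stood apart from pairs A and B in red cell genes as well as in lymphocyte genes.

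The endothelial and epithelial lists did not follow the CD3 genes. In the fibroblast list KO C was highest for 10 of 17 genes. WT C was second for 2 of those, where 9.5% of all detected genes had that order. KO C stood more than 2-fold above all others for 0 of the 17. Endothelial genes were highest on KO B, with a median of 0.92 against -0.35 on KO A and 0.02 on KO C, and -0.31, -0.17 and -0.02 on WT A, B and C (log2 intensity minus each gene's mean). Flt1, Vwf, Eng, Tie1, Pecam1 and Cdh5 differed by -0.12 to 0.40 in pair C. The epithelial list had medians of -0.23, -0.04 and -0.10 on the KO arrays, against 0.19, 0.10 and 0.09 on the WT arrays. Krt5, Ovol1, Elf3, Trp63, Elf5 and Cldn3, its genes of widest range, differed by -0.98 to 0.10 in pair C. In the fibroblast list Lum, Thbs2, Col3a1, Col6a2, Col1a1 and Pdgfra differed by 0.89 to 1.65 in pair C, by 0.08 to 1.61 in pair A and by -0.68 to 0.49 in pair B, where 4 of these 6 were below 0. Across these lists 0 genes passed in limma. At an unadjusted p below 0.05, 7 of 17 fibroblast genes tested were higher in KO and 1 of 17 epithelial genes was lower. Over all genes tested 3.03% had such a p in either direction.

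The 10 genes outside the set whose values over the 6 arrays lay closest to the mean centred profile of Cd3d, Cd3e, Cd3g and Cd2 were ranked by root-mean-square difference on the log2 scale. The profile stood at -1.17, -1.29 and 3.63 on KO A, B and C, against -0.76, -0.84 and 0.42 on WT A, B and C. Cd6 was closest, at 0.21, followed by the MHC class Ib gene H2-M2 at 0.32, the early activation marker Cd69 at 0.34, Tbc1d10c at 0.40, Fam78a at 0.44 and Cd27 at 0.44. Cxcl13, the chemokine that draws B cells into follicles, came next at 0.44, then Arhgap45 at 0.45, Pou2af1 at 0.46 and the B-cell gene Fcrla at 0.47. Cd69 read 5.99, 5.14 and 10.60 on the KO arrays, against 6.32, 5.86 and 6.67 on the WT arrays (log2 intensity). Cxcl13 read 4.64, 4.32 and 8.13 in KO, against 4.87, 4.91 and 5.84 in WT. Among the chosen genes themselves, Cd52 and Coro1a lay at 0.24 and 0.27 from that profile, Laptm5 at 0.83 and Thy1 at 1.30. The likeness is over 6 arrays, of which KO C lies farthest from the mean.

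**Figure D4:**
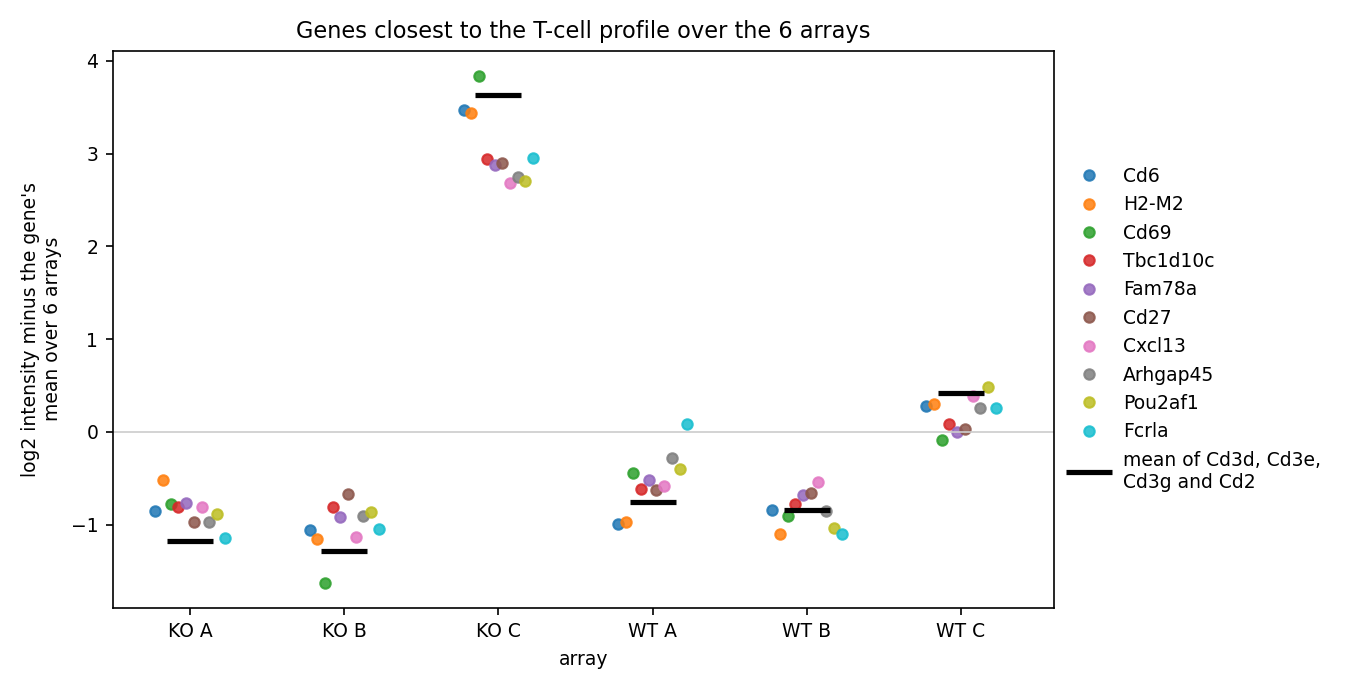
Log2 intensity minus each gene's mean over the 6 arrays for the 10 genes closest to the mean profile of Cd3d, Cd3e, Cd3g and Cd2 (black bars). The bars stand at 3.63 on KO C and 0.42 on WT C, and below 0 on the other 4 arrays.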

How the data were processed

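RNA from 6 mammary epithelial cultures of mice was labelled as biotinylated cRNA and read on Illumina bead arrays, per the labels. The deposited intensity values are unnormalised probe brightness, and each is followed by a detection p-value deposited for that probe and array, per the file headers. The authors' value table is on a log2 scale with the same median (6.75) in each column and the same ranks as the deposited intensities, and how it was transformed is not stated here. The submitters' processing notes list GenomeStudio and lumi, with no version.

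Intensities were corrected and quantile normalised with neqc of limma 3.58.1 (R 4.3.3, offset 16). Probes were named from the platform annotation with symbols updated through a GRCm38.p6 gene table: of 45281 probes, 34885 had 1 symbol, 18 had several, and 10378 had none in that annotation. Each gene is represented by its brightest probe. Genes with detection p under 0.05 on at least 1 array (12358) served for description, and those with such a probe on at least 3 arrays (10419) for lmFit and eBayes, two-sided, adjusted by Benjamini-Hochberg. All 6 arrays share 1 slide. No column lacked a sample.

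Named genes were all 10 chosen genes, up to 6 detected genes per list with the widest range, and the 10 closest profiles; Riken, Gm and LOC symbols were left out. The genes and lists were chosen with earlier results of these data known. Pair letters come from the sample titles. Deviations from the group mean correlated between arrays of 1 letter (0.33 for A, 0.48 for B, 0.72 for C), and also between KO B and WT A (0.45). Alternatives were no background correction, median scaling, the authors' table, an offset of 50, raw values, the pair as a replicate block, probe means, other detection rules, trend and robust settings, array weights and omission of each array. A repeat on pairs A and B alone was added after seeing the data. Precision is limited by having 3 arrays a group.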

Additional observations from a re-analysis of the deposited data

How the results depend on the processing

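In 112 recalculations of the KO minus WT difference of the 8 detected genes, every value moved by less than the spread between replicates, a spread that KO C makes wide (1.81 for the median). The sign changed in 12 of the 112, all without KO replicate C or with pairs A and B only. Without 1 array the median ranged from -0.53 (without KO replicate C) to 1.58 (without KO replicate B). Under no background correction, median scaling, the authors' table, an offset of 50 and raw values KO C stayed highest for 8 of 8 genes and WT C second for 7, with pair C medians from 2.38 to 2.69. At a detection p under 0.01, 5 genes were detected on KO B in place of 6. The limma count over all genes was 2. It was 1 without background correction, with the authors' table, with an offset of 50 and with raw values, 6 with array weights, and 1 to 2 when 1 array was left out. It was 3 in the fit that takes the culture pair as a replicate block. Of the 10 genes, the other T-cell genes and the other leukocyte genes, 0 passed in any of the 18 alternatives, block included. At an unadjusted p under 0.05 the 10 genes, chosen with these values known, counted 0 to 3 (3 on leaving out KO replicate C or all of pair C). The other T-cell genes counted 0 to 1 and the other leukocyte genes 0 to 5, where 148 to 1160 of all genes did so.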
